A study of Mus musculus with 2 samples.

Results

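Nonsense-mediated-decay transcripts are annotated transcripts whose stop codon lies well before their last exon junction, and 1089 of them were measured at 0.5 TPM or more in both libraries of mouse embryonic liver. TPM is a transcript's level relative to all transcripts of its library, corrected for length. They were chosen by the transcript class that GENCODE M21 gives and by the deposited TPM, so their levels are a description and carry no test. M21 holds 7186 transcripts of the class, of which 4687 were matched by identifier to the transcript tables. Of these, 1201 were listed at 0 TPM in both libraries, 2397 were above 0 but under the threshold in one or both, and 1089 (23.2%) were members. The tables list 129984 transcripts in all, 101510 of them matched to M21. Among protein-coding transcripts in the tables, 35.9% reached the same threshold.

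The RNA was polyadenylated, ribosomal-RNA-depleted and longer than 200 nucleotides, and came from the liver of C57BL/6J embryos at day 14 of gestation. There was 1 group, with 2 libraries whose labels number them as biological replicates 1 and 2. Male and female littermates were pooled for each, and no genetic change or treatment is named. Pairs of values below give replicate 1 first. Both carry the same donor entry, so the spread between them may not cover differences between litters. All 11 erythroid and all 10 hepatocyte markers were at 10 TPM or more in both libraries, while 4 skeletal muscle markers summed to 27.5 and 1.87 TPM. The libraries held 100477391 and 154601605 expected counts, which are estimated fragments per transcript.

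In the textbook account, splicing leaves a protein complex (the exon junction complex) just upstream of each exon junction, and the first ribosome to translate the message strips these complexes off. A stop codon more than about 50 nucleotides upstream of the last junction leaves a complex behind, and factors that include Upf1, Smg5 and Smg6 then bring about decay of the message. Many splicing factors use the pathway on their own messages: an included "poison" exon, which holds a stop codon, or a spliced 3′ end lowers the amount of protein. A level in polyadenylated RNA is what remains after any such decay, and production and decay cannot be told apart in these data.

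The clearest form of an early stop is an exon that no protein-coding transcript of the gene overlaps, and the following stretches show how soon the reading frame ends in it. They are the members of the SR protein, hnRNP and ribosomal protein lists with such an exon, read from the M21 transcript sequence, 5′ to 3′, from the first base of the exon through the stop codon, which is in capitals.
Srsf3-201: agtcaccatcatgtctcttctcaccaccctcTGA
Rps19-205: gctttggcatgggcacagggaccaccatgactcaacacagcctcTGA
Hnrnpl-213: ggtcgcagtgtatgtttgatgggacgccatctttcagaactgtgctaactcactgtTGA
Tra2b-206: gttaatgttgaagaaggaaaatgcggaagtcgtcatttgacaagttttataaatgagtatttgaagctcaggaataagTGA
Srsf11-206: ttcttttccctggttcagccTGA
Srsf11-212: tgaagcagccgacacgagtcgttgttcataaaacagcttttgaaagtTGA
Hnrnpll-203: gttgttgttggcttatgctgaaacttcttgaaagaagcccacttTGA
Srsf4-203: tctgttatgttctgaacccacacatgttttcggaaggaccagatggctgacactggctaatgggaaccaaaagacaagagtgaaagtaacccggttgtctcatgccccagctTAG
The Srsf3 exon is at chr17:29039454-29039909 on the plus strand of GRCm38 and is 456 nt long, of which 34 nt are read before translation would end. The Rps19 exon, at chr7:24886107-24886187 on the plus strand, is 81 nt long, and its frame ends after 47 nt. The Hnrnpl exon is at chr7:28817335-28817404 on the plus strand and is 70 nt long with 59 nt read. The Tra2b exon lies at chr16:22258986-22259261 on the minus strand and spans 276 nt, with 81 nt read. The Srsf11 exons are at chr3:158024123-158024231 and chr3:158023243-158023359 on the minus strand, with 23 nt and 50 nt read. The Hnrnpll exon is at chr17:80044940-80045022 on the minus strand with 47 nt read, and the Srsf4 exon is at chr4:131884276-131884482 on the plus strand with 115 nt read. The model of Srsf4-204, a further member, begins inside this exon, at position 131884295, and ends the exon at the same base, so no junction into the exon is annotated for it.

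The place of the stop codon differed between members. Of the 1089 members, 646 (59.3%) had a stop inside exon sequence that a protein-coding transcript also has, where that transcript does not stop. A further 177 (16.3%) had it in an exon of their own and 149 (13.7%) in an extension of a coding exon. Another 98 (9.00%) shared the stop codon position of a protein-coding transcript. The other exons of these were not compared with that transcript, which need not be the main one of the gene. The remaining 19 belonged to genes in which M21 has no protein-coding transcript. Srsf2-204, Srsf6-201 and Tardbp-208 were of the class with a shared stop, and Ppia-201, Eef1b2-205 and Rpl12-201 of the class with a stop in shared exon sequence. TGA was the stop codon in 637 members, TAG in 227 and TAA in 225.

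The stop codon lay a median of 368 nt before the last junction, with quartiles of 179 and 769 nt, and the class was defined on this position. Listed transcripts of the class that were not members had a median of 329 nt (n = 3597 with a stop codon). In 4 members the distance was under 50 nt: Cyb5a-201 at 45, Trp53bp1-218 at 31, Ubl5-205 at 38 and Mrrf-202 at 29 nt. Polq-206 had the longest distance, 7083 nt. Exactly 1 junction followed the stop in 246 members, while 351 had 5 or more. The reading frame began at a start codon shared with a protein-coding transcript in 751 members, was annotated as incomplete at its start in 301, and began elsewhere in 37. The first exons of those 301 are not known from the annotation.

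**Figure D1:**
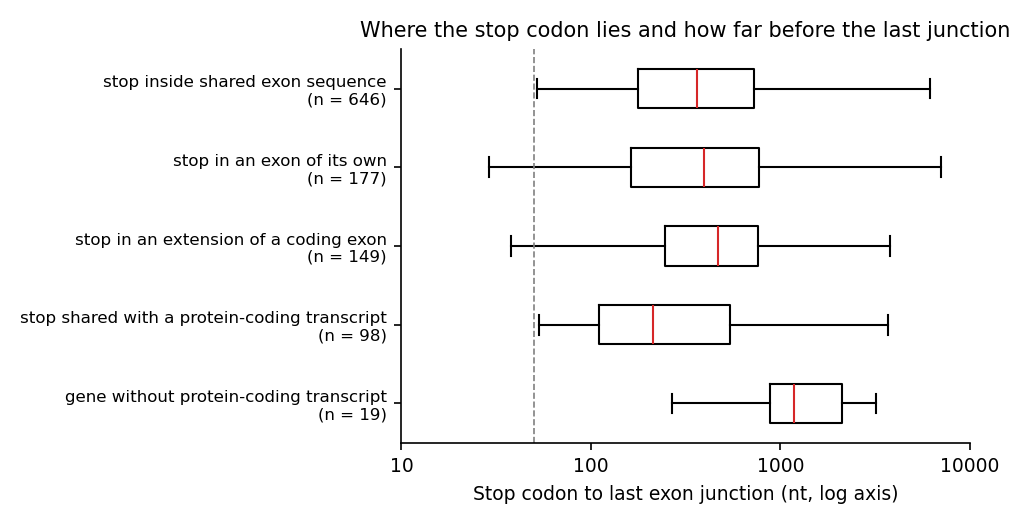
Distance in nucleotides from the stop codon to the last exon junction (log axis) for the 1089 members, by where the stop codon lies. Boxes span the quartiles with the median in red, whiskers reach the extremes, and the dashed line marks 50 nt. The class that shares a protein-coding stop has a median of 213 nt and the class with an exon of its own 397 nt.

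The members held a small part of the messenger pool. Their TPM summed to 0.635% of all TPM in replicate 1 and 0.665% in replicate 2 (0.650% ± 0.0210, SD, n = 2). Without the 4 adult globin genes in the total, the mean was 1.21%. The median member had 1.51 and 1.64 TPM. Only 91 of 1089 reached 10 TPM in both libraries and 9 reached 100 TPM. The 10 highest held 37.8% ± 0.963 (SD, n = 2) of the members' TPM, and Ppia-201 alone 17.7%. Just above the threshold were Prr14-205 (0.52 and 0.50 TPM), Snapc3-203 (0.50 and 0.53 TPM) and Mavs-203 (0.50 and 0.60 TPM). Just below it were Pgk1-203 and Sumf2-202, both at 0.49 and 1.21 TPM, and Morf4l1-209 at 0.49 and 1.18 TPM.

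The most abundant member, Ppia-201, of the prolyl isomerase cyclophilin A (chr11:6415870-6419815), was at 1121 and 1174 TPM, which was 64.99% and 63.35% of the gene. Eef1b2-205, of a subunit of the translation elongation factor that reloads eEF1A (chr1:63177145-63179568), was at 361 and 375 TPM, or 56.4% and 62.8% of the gene. The deposited posterior SD was 0.318% and 0.268% of the expected count for Ppia-201 and 0.716% and 0.554% for Eef1b2-205. Both genes, like ribosomal protein genes, are known to have processed copies elsewhere in the genome, and the part of these copies in the values was not tested. Serf2-205 followed at 166 and 141 TPM and Cyb5a-201, of cytochrome b5, at 141 and 155 TPM. Rpl12-201, of a protein of the large ribosomal subunit (chr2:32961740-32964043), was at 147 and 130 TPM. Atp5f1-203, of the mitochondrial ATP synthase (chr3:105942702-105959276), stood at 119 and 116 TPM, and Hspa5-204, of the chaperone BiP of the endoplasmic reticulum (chr2:34772099-34773307), at 113 and 104 TPM. Serpinc1-204, of the liver's antithrombin (chr1:160989377-161002463), was at 101.97 and 101.01 TPM.

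Several high entries carried a model other than the annotated one. The tables used the models of GENCODE M4, and 88 of the 1089 members had a deposited length that differs from that in M21, while 1001 had the same length. The class that M4 gave the 88 is not known from the files. Among them were Glo1-201, of the glyoxalase that clears methylglyoxal (56.2 and 62.7 TPM), and Tyms-205, of thymidylate synthase (58.5 and 57.3 TPM). Brpf3-206, of a chromatin reader (46.1 and 60.5 TPM), and Srsf3-201, of an SR splicing factor (53.8 and 45.0 TPM), also differed in length.

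The share of a gene held by a member depended on the threshold. The share, the member's TPM over the summed TPM of all transcripts listed for the gene, had a median of 10.4% in both libraries, with quartiles of 4.37% and 23.2% (mean of the libraries). The mean share was 17.7%, and at a threshold of 5 TPM in both libraries the median was 23.4%. In the same 897 genes the protein-coding transcripts past the threshold had a median share of 23.4% (n = 1657), processed transcripts 7.63% (n = 197) and retained-intron transcripts 6.37% (n = 1076). Summed over these genes, transcripts of the decay class held 14.7% ± 0.377 (SD, n = 2) of the TPM and protein-coding transcripts 69.1% ± 0.680. These genes were chosen for having a decay-class transcript past the threshold, so the order of the classes in them depends on that choice. The share was at least 10% in both libraries in 518 members and under 5% in both in 276.

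**Figure D2:**
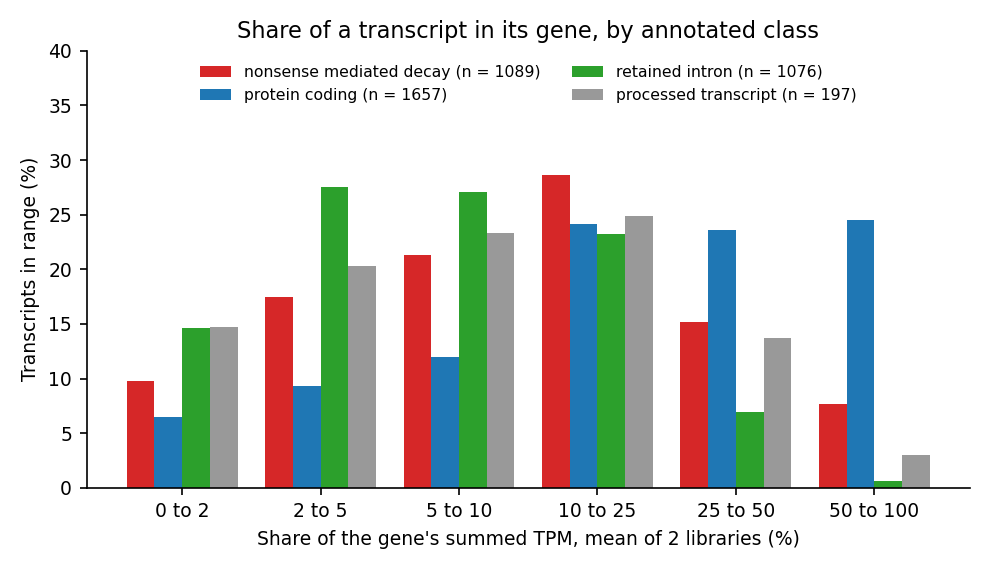
Percent of transcripts (vertical axis) in each range of the share of their gene's summed TPM (horizontal axis, percent, mean of both libraries) for transcripts of at least 0.5 TPM in both libraries in the 897 host genes. Of the members, 28.7% fall in the range of 10 to 25% and 7.71% at 50% or more, against 24.5% of protein-coding transcripts at 50% or more.

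In 80 members the share was at least 50% in both libraries, 40 of them in genes of at least 5 TPM in both. Of the 80, 18 were the only transcript listed for their gene and 22 had a deposited length other than the annotated one, which together made 28 members. The genes at 100% included Mrpl32-201, of the mitochondrial ribosome, at 34.6 and 38.4 TPM, and Dnajc15-201, of a mitochondrial co-chaperone, at 25.5 and 25.7 TPM. Mbl1-201, of the liver's mannose-binding lectin, at 15.1 and 16.3 TPM, was also alone, and so were Eipr1-201 and Gtpbp4-201; all 5 differed in length. Of members with the annotated length, Commd2-201 held 85.0% and 82.8% of its gene, Tsr2-203, of a ribosome assembly factor, 76.8% and 74.9%, and Mrps14-201, of the small mitochondrial ribosomal subunit, 74.9% and 74.5%. Few reads crossed the junctions that set these members apart, as given below. Hnrnpu-206 stood at 117 and 112 TPM and at 87.1% of the entry it was filed under, but the tables place it apart from the other Hnrnpu transcripts, and over the M21 gene its share was 59.5% in replicate 1. In all, 13 members were filed under another gene than in M21.

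Most host genes had 1 member (757 of 897), 108 had 2 and 32 had 3 or more. Tmem234, of a small membrane protein, had 9, which summed to 36.1 and 39.8 TPM, or 48.4% and 47.9% of the gene. The highest, Tmem234-210, was at 13.3 and 12.8 TPM and the lowest, Tmem234-216, at 0.79 and 0.97 TPM. Traf7, of a ubiquitin ligase, had 6 (12.1% and 13.8% of the gene in sum), and Xpo6, the nuclear exporter of actin, had 5 (54.9% and 55.9%). Tardbp, of the RNA-binding protein TDP-43, which binds and controls its own message, had 4, at 26.7% and 25.8% in sum. The members of 1 gene share most of their exons, so their levels are not separate measurements.

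Most splicing factor genes that could have a member had one. Over all 2408 genes of at least 0.5 TPM that have a listed transcript of the class, 899 gene symbols (37.3%) had a member. Of the SR and Tra2 proteins, which bind exons and recruit the splicing machinery, 7 of 8 such genes had one (87.5%), with 10 members in all. Of the hnRNP proteins, which package nascent RNA and often repress splice sites, 8 of 11 had one (72.7%). Of other splicing factors and kinases, 25 of 30 had one (83.3%), with 40 members. These lists were chosen with earlier results of the same data in view, and the counts were not tested against the whole.

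Among the SR proteins, Srsf3-201 was the highest, at 34.7% and 28.0% of its gene, with the length differing as above. Srsf2-204 was at 41.0 and 34.8 TPM, or 13.7% and 10.9% of its gene, and Srsf6-201 at 22.8 and 21.3 TPM, or 20.6% and 17.9%. Srsf1-204 stood at 17.9 and 17.8 TPM, or 12.2% and 10.5% of the gene. Each of the 4 highest had a lower share in replicate 2 than in replicate 1. The other 6 members of this list lay between 1.05 and 6.02 TPM, with Tra2b-206 at the top (6.02 and 5.62 TPM) and Srsf4-203 at the bottom (1.07 and 1.05 TPM). None of the 10 reached 50% of its gene in both libraries. The sequences above from Srsf3, Tra2b, Srsf11 and Srsf4 belong to 5 of these 10 members.

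Among the hnRNP proteins, Hnrnpd-204 was at 23.6 and 20.6 TPM, or 14.0% and 12.3% of its gene, and Hnrnpdl-205 at 11.6 and 12.2 TPM, or 9.29% and 9.68%. Hnrnpu-208 was at 17.3 and 15.8 TPM, with the same reserve about its gene as Hnrnpu-206. Hnrnpl-213 was at 5.89 and 6.85 TPM and Ptbp1-207, of the polypyrimidine tract binding protein, at 5.76 and 5.89 TPM. In the wider splicing list the highest were Tardbp-228 (51.7 and 49.0 TPM, 19.00% and 16.56% of the gene) and Ddx5-208, of an RNA helicase (37.3 and 48.5 TPM, 25.2% and 31.0%). Tardbp-208 was at 15.95 and 21.45 TPM. Qk-202, of the RNA-binding protein Quaking (12.5 and 13.7 TPM, 83.6% and 83.8%), again had another length. The Clk kinases, which phosphorylate SR proteins, had 5 members: Clk1-211 (14.5 and 8.41 TPM), Clk1-210 (7.12 and 11.0 TPM), Clk2-204 (6.21 and 6.87 TPM), Clk4-204 (3.76 and 3.87 TPM) and Clk4-212 (1.56 and 1.83 TPM). Clk1-211 was higher in replicate 1 and Clk1-210 in replicate 2.

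Of the decay pathway and the exon junction complex, 4 genes could be counted and 2 had a member. Smg6-202, of the endonuclease of the pathway, was at 2.06 and 2.47 TPM, or 40.8% and 44.1% of its gene. Smg5-202, of a partner that promotes Upf1 dephosphorylation, was at 0.92 and 1.12 TPM, or 3.03% and 3.27%. Of the genes of polyamine control, all 4 that could be counted had a member. Sms-204, of spermine synthase, was at 9.95 and 9.99 TPM (58.5% and 56.1%) and Azin1-205, of the antizyme inhibitor, at 2.28 and 3.26 TPM (5.12% and 5.54%).

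Ribosomal protein genes had members of high level and low share. Of 10 cytosolic ribosomal protein genes that could be counted, 8 had a member, with a median level of 15.4 TPM and a median share of 2.52%, against 1.60 TPM and 10.4% over all members. Rpl12-201 was the exception, at 24.0% and 22.7% of its gene. Rpl10a-203 was at 30.3 and 29.0 TPM (2.70% and 2.46%) and Rpl3-205 at 22.4 and 27.1 TPM (2.84% and 3.23%). Rps19-205 was at 12.4 and 11.0 TPM (2.18% and 1.67%). The Rps19 gene as a whole was at 569 and 655 TPM, and the median host gene at 16.0 and 17.7 TPM.

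The lists of erythroid and hepatocyte genes gave few members. Of 36 erythroid and heme genes and 37 hepatocyte genes listed, 3 and 4 could be counted. Outside these lists, Ermap-207, of an erythroid membrane protein, was at 26.1 and 26.6 TPM. Of the erythroid and heme genes 3 could be counted and all had a member, none above 5 TPM: Slc25a37-204, of the mitochondrial iron importer mitoferrin (4.26 and 4.80 TPM), Slc25a38-205, of the mitochondrial glycine carrier (3.16 and 4.12 TPM), Slc25a38-206 (2.50 and 2.33 TPM) and Ank1-210, of the red cell ankyrin (1.36 and 1.85 TPM). Of the hepatocyte genes 3 of 4 had one: Serpinc1-204, given above, Trf-205, of transferrin (38.04 and 14.40 TPM), and Serpinf2-204, of the plasmin inhibitor (3.6 and 3.87 TPM). In bulk RNA, fewer cells of a type and less RNA per cell cannot be told apart. Respiratory chain genes had a member in 8 of 15, proteasome subunits in 6 of 11 and replication and division genes in 4 of 10. Of 2 counted stress response genes, Hspa5 had one.

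The libraries ranked the members alike. Across the 1089 members, Spearman's rho between the libraries was 0.925 for TPM and 0.971 for the share, as descriptions over transcripts that share genes, libraries and models. In 930 members (85.4%) the TPM values lay within 1.5-fold of each other, against 89.8% of all transcripts past the threshold. In 45 they were more than 2-fold apart, and the share of all transcripts that far apart was not counted. The median log2 ratio of replicate 2 to replicate 1 was 0.14 over the members and 0.14 over all transcripts.

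The deposited TPM values carry 95% credibility intervals, which cover the assignment and sampling of reads and not the animals. These intervals did not overlap between the libraries in 184 members (16.9%), against 34.7% of all 25920 transcripts past the threshold. Higher in replicate 2 were 159 members (14.6%), against 31.0% of all, and higher in replicate 1 were 25 (2.30%), against 3.72% of all. The median level of the members is low, and the comparison depends on level. At 5 TPM or more in both libraries, 65 of 186 members (34.9%) had intervals apart, against 61.3% of 8636 transcripts of all classes. There 13 members (6.99%) were higher in replicate 1, against 5.27% of all, so the order of members and background in that direction was the opposite. Members and background were not tested against each other.

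Of the 45 members more than 2-fold apart, 39 reached 5 TPM in neither library. Zdhhc3-204, outside the rule and named after its values were seen, was at 0.58 and 2.88 TPM, a log2 ratio of replicate 2 to replicate 1 of 2.31. Among members that reached 5 TPM in a library, the largest ratio belonged to Atp5a1-204, of a subunit of the ATP synthase, at 13.5 and 62.8 TPM, a log2 ratio of 2.22. Eif4a1-201, of a translation initiation helicase, was at 2.55 and 5.61 TPM (1.14), Gtpbp2-211, of a ribosome rescue factor, at 3.05 and 6.28 TPM (1.04), and Rpl36a-205 at 7.69 and 13.4 TPM (0.80). Each of these 4 was higher in replicate 2 with intervals apart. In the other direction, Trf-205 was at 38.04 and 14.40 TPM (-1.40), Pabpn1-209, of the nuclear poly(A)-binding protein, at 16.9 and 7.55 TPM (-1.17), Anp32e-208, of a histone chaperone, at 73.4 and 36.1 TPM (-1.02), and Nacad-202 at 6.15 and 3.10 TPM (-0.99). These values are of 2 libraries of 1 group and describe them alone.

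**Figure D3:**
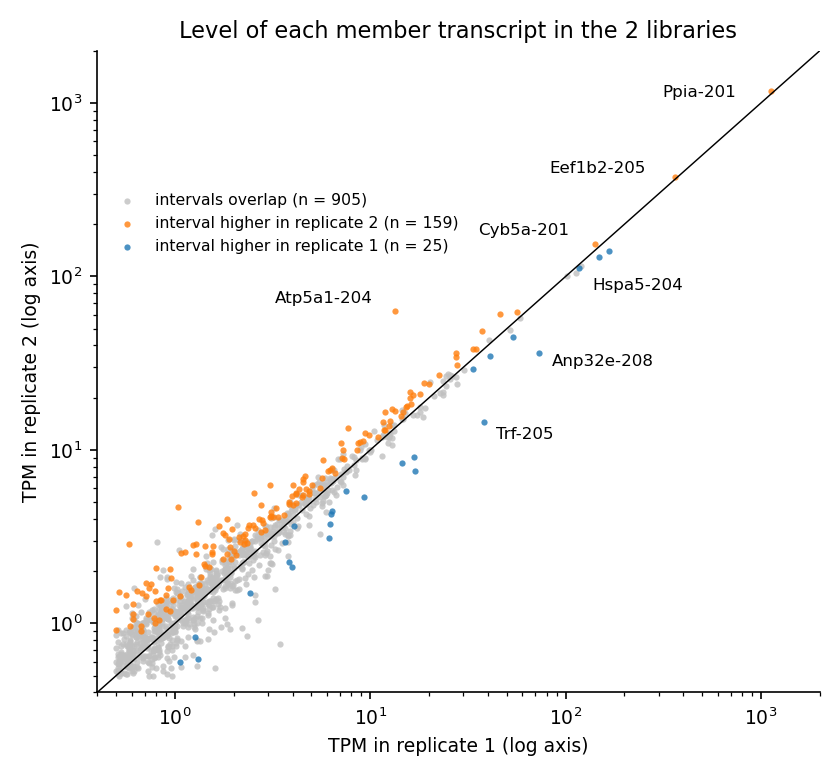
TPM of each of the 1089 members in replicate 1 (horizontal, log axis) and replicate 2 (vertical, log axis), with the line of equal levels. Grey points have overlapping deposited intervals (905 members), orange ones are higher in replicate 2 (159) and blue ones higher in replicate 1 (25); Atp5a1-204 and Trf-205 lie farthest from the line among the labelled points.

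Reads across exon junctions were listed separately, and the choice of members did not use that list. The list and the TPM may hold the same reads, so they are not independent measurements. The junction list, on mm9, names reads of 2 replicates as R1 and R2, which the list does not tie to the labelled replicates, and holds 80752918 and 114217023 reads. Of the members, 903 had an ENSEMBL 65 model on mm9, 793 with the same exon lengths as in M21. An own intron, one that no other model of the gene has, was found in 608. Where a member has several, own reads are those of its best-read own intron. Usage, the percent of reads at an own intron's splice sites that cross that intron, is the mean over the own introns for which it could be computed, so the 2 need not come from the same intron. In 459 of the 608 (75.5%) at least 1 read crossed an own intron in both R1 and R2, in 45 in one of them alone, and in 104 (17.1%) none did in either. Among listed transcripts of the class that were not members, 32.4% of 2208 with an own intron had reads in both. Non-members were left out for their lower TPM, so this contrast carries no test. Protein-coding transcripts past the threshold had reads in 89.1% of 6224 and processed transcripts in 70.1% of 981.

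**Figure D4:**
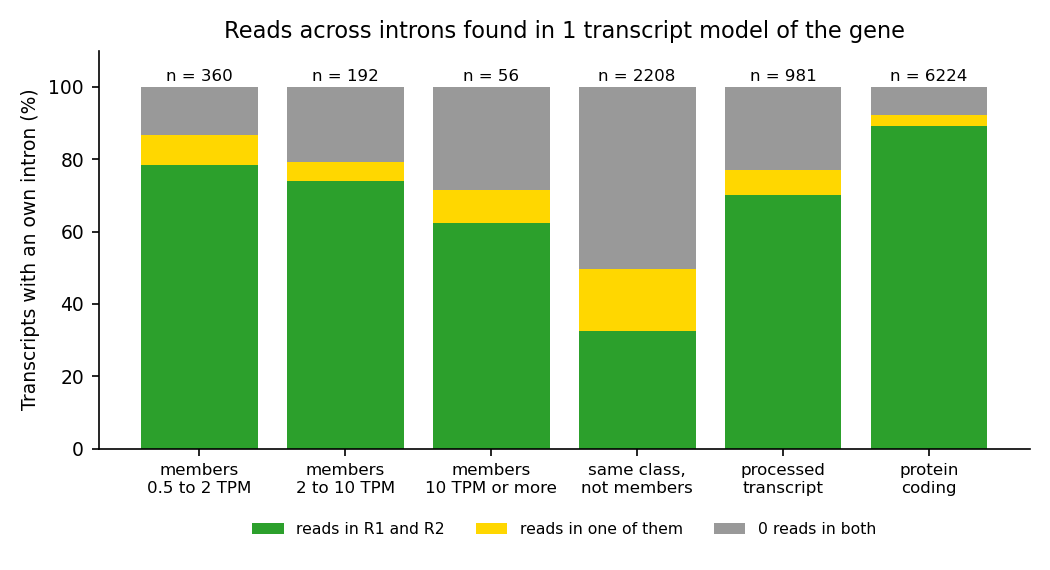
Percent of transcripts with an own intron (vertical axis) whose own introns had reads in R1 and R2, in one of them, or in neither, for members in 3 ranges of mean TPM and for 3 other sets. Numbers above the bars are transcripts with an own intron, and reads in both fall from 78.3% of the lowest range of members to 62.5% of the highest.

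Support by own reads was less frequent among the higher members. It was 78.3% of 360 members from 0.5 to under 2 TPM, 74.0% of 192 from 2 to under 10 TPM and 62.5% of 56 at 10 TPM or more. The members with no own read held 27.8% of the TPM of members with an own intron in replicate 1 and 26.3% in replicate 2, and 16 of the 104 were at 10 TPM or more. All of the 104 had an own intron of at least 81 nt, and in 102 of them the other introns had a median of 10 or more reads in both R1 and R2. These differences in share were not tested, and whether the aligner could place reads on these introns was not tested.

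Eef1b2-205, the second highest member, had 0 own reads in R1 and in R2, while its other introns had a median of 11223 and 14938 reads. Its own intron shares a splice site with junctions of 73 and 73 reads, so that 0 reads allow a usage of up to 4.11%, from counting error alone, against a TPM share of 56.4% and 62.8%. Serf2-205 had 0 own reads where 469 and 842 reads used its splice sites, which allows up to 0.640% and 0.356%, against a share of 48.2% and 40.3%. Mrps14-201 had 0 where 1712 and 2409 reads did, which allows up to 0.175% and 0.125%, against 74.9% and 74.5%. Anp32e-208, Hspa5-204, Atp5a1-204, Trf-205 and Pabpn1-209 also had 0 own reads. Of the 8 members named above for their ratio between libraries, 5 had an own intron to count: 4 of these had 0 reads and Gtpbp2-211 had 8 and 24, while Eif4a1-201, Nacad-202 and Rpl36a-205 had none to count. Ppia-201 had 1 and 4 own reads, a usage of 0.741% and 0.913% against a share of 64.99% and 63.35%. Its other introns had a median of 783 and 2598 reads, in a gene of 1725 and 1853 TPM. Those of Cyb5a-201 had 4256 and 7595, in a gene of 308 and 341 TPM. Relative to TPM, reads were thus few on the other introns of Ppia-201 too, and the cause was not tested. Atp5f1-203 had 0 and 2 own reads. Commd2-201 had 5 and 10, a usage of 0.728% and 0.733% against a share of 85.0% and 82.8%. Tsr2-203 had 25 and 37, a usage of 4.75% and 4.11% against 76.8% and 74.9%. Smg6-202 had 0 and 4, a usage of 0% and 3.05% against 40.8% and 44.1%. For these members the TPM was not matched by reads on the junction that sets the transcript apart. Sms-204 also had 0 own reads, but its other introns had a median of only 5 and 11.5 reads.

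Other members had many own reads. Dhrs11-202, of a short-chain dehydrogenase (chr11:84821992-84828994), had 915 in R1 and 1490 in R2, a usage of 31.7% and 28.5% of the reads at its splice sites, beside a TPM share of 24.3% and 22.6%. Cyb5a-201 had 768 and 1359 own reads and a usage of 16.6% and 17.2%, beside a share of 45.7% and 45.3%. Rpl12-201 had 547 and 924 and a usage of 72.5% and 62.5%, above its share. Its other introns had a median of 212 and 470 reads, fewer than the own intron, and the posterior SD was 2.24% and 2.04% of its count. Srsf6-201 had 332 and 463 own reads and a usage of 17.1% and 16.3%, close to its share of 20.6% and 17.9%. Mrps34-203 (949 and 1535), Sssca1-206 (731 and 1339) and Gm28043-201 (578 and 901) had as many, but at TPM values of 3.18 or less, and their introns also belong to a model of another gene or another M21 transcript. That was so for 35 of the 608 members. Hnrnpu-206, of the hnRNP list, had 339 and 619 own reads, more than Srsf6-201, but on an intron of this kind. Srsf1-204 and Hnrnpdl-205 had fewer own reads than Srsf6-201. Srsf1-204 had 16 and 14, a usage of 0.516% and 0.252% against a share of 12.2% and 10.5%. Hnrnpdl-205 had 39 and 64, a usage of 1.64% and 1.83% against 9.29% and 9.68%. Srsf2-204, Srsf3-201 and Hnrnpd-204 had no own intron to count. All members of the splicing lists with an own intron had at least 1 own read in both R1 and R2. These were 7 of the SR and Tra2 list, 3 of the hnRNP list and 12 of the wider list, against 459 of 608 of all members.

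The transcripts with poison exons could be followed in part. Rps19-205 had 237 and 343 own reads and a usage of 30.3% and 16.8%, against a TPM share of 2.18% and 1.67%. Srsf4-204, whose model begins inside the exon, had 49 and 72 own reads (usage 83.1% and 73.5%) and Srsf4-203 70 and 94 (10.7% and 9.47%). Srsf11-212 had 38 and 60 (3.97% and 3.45%) and Srsf11-206 12 and 11 (22.2% and 13.9%). A usage is read at the member's own splice sites, so one at a rarely used site can be high where the transcript is rare. In all, of 96 members with the stop in an exon of their own and an own intron, 85 (88.5%) had reads in both, against 73.0% of 363 members with the stop inside shared exon sequence. A member with an exon of its own can have 2 own introns, as Cyb5a-201 and Rps19-205 did, and the best-read one counts. The number of own introns was not matched between these sets.

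A few other members, chosen after their values were seen, show own exons with many reads.
Ermap-207: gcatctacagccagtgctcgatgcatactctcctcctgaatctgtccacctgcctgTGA
Rbm39-222: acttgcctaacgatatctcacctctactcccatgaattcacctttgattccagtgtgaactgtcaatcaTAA
Again the stretch runs from the first base of the exon through the stop codon, in capitals. The Ermap exon, at chr4:119188176-119188321 on the minus strand, is 146 nt long. Ermap-207, of an erythroid membrane protein, was at 26.1 and 26.6 TPM with 370 and 678 own reads, and its usage of 14.4% and 16.1% lay near its TPM share of 14.7% and 13.5%. The Rbm39 exon, at chr2:156178880-156178952 on the minus strand, is 73 nt long. Rbm39-222, of a splicing factor, was at 5.29 and 5.00 TPM with 104 and 131 own reads and a usage of 25.0% and 19.02%. Rbmx-205, of an RNA-binding protein on the X chromosome, was at 12.4 and 12.6 TPM with 329 and 519 own reads. Its usage of 59.0% and 57.2% and its share of 57.1% and 55.8% were both above 50%.

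Usage and TPM share ranked the 541 members in which usage could be computed differently. These members had at least 20 reads at the splice sites in both R1 and R2, and the median usage was 3.01% in R1 and 2.80% in R2, against a median share of 9.58% and 9.84% in the same members. Usage was below the share in 386 of the 541, below 10% of it in 164, and within 1.5-fold of it in 144. Where an own intron skips an exon, reads on both junctions of that exon enter the total. Usage is then lower than the fraction of transcripts, and such members were not set apart. Spearman's rho between usage and share was 0.06 across the 541 members. By level it was 0.24 in 323 members of 0.5 to under 2 TPM, 0.03 in 170 of 2 to under 10 TPM and -0.30 in 48 of 10 TPM or more. It was 0.63 across 1389 other listed transcripts of the class, 0.69 across 4164 protein-coding transcripts and 0.06 across 836 processed transcripts. Usage itself ranked the members alike in R1 and R2, with a rho of 0.936. These correlations are descriptions over transcripts, several from the same gene and all from the same libraries.

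**Figure D5:**
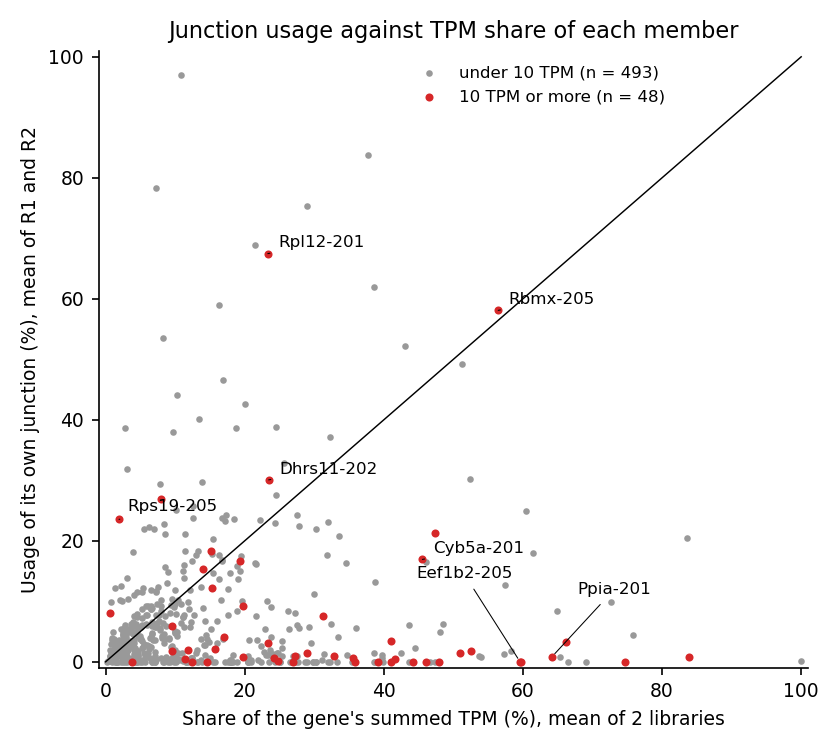
Usage of the own junction (vertical, percent of reads at its splice sites, mean of R1 and R2) against the share of the gene's summed TPM (horizontal, percent, mean of both libraries) for 541 members, with the line of equality. Of the 48 members of 10 TPM or more (red), 40 lie below the line; Rbmx-205 lies on it, Rpl12-201 and Rps19-205 above it, and Ppia-201 and Eef1b2-205 near 0% usage.

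The older transcript values on mm9 ranked the members differently. In 793 members with the same exons, Spearman's rho between mean TPM and mean mm9 RPKM was 0.491, 24 members were at 0 RPKM in both, and 245 were at 0.5 RPKM or more in both. Hspa5-204 was at 0.321 and 0.155 RPKM, and Trf-205 was listed at 0 in both. Of the 104 members with no own read, 35 had 0.5 RPKM or more in both.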

How the data were processed

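Polyadenylated RNA was sequenced as stranded paired reads from 2 libraries of 1 group, per the labels. Per the file headers, the authors' transcript tables give an expected count, TPM and FPKM with 95% credibility bounds. A deposited text file beside each table names mm10 and the annotation M4. The upper TPM bound and the posterior SD of the count were deposited as further columns. The bound was used as the upper end of the interval and the SD as a percent of the count. The IsoPct percent was deposited too and is not used here: shares were recomputed from TPM. For neither aligner nor quantifier is a name given in the sources used here. The mm9 junction list was deposited by the authors with a count of reads per junction and replicate, and the mm9 transcript table holds, per the file headers, a score field and RPKM of 2 replicates. Positions are those of GRCm38 (mm10) from M21, and mm9 positions were not converted.

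Identifiers were joined to GENCODE M21 with versions removed. Members needed TPM of at least 0.5 in both libraries. Stop codon, exon and junction positions came from the M21 annotation. Own introns came from ENSEMBL 65 exon models on mm9, only where the exon lengths equalled those in M21. Usage is reads on an own intron over all reads at either of its splice sites, with at least 20 reads in R1 and R2, and only where another model shares 1 of the sites. For an own intron that skips an exon, both junctions of the exon count in the total, which lowers usage. Own reads are those of the best-read own intron, and usage is the mean over the own introns that qualify. The usage calculation was run on simulated reads of 100 transcripts. The reads were drawn with the same formula, so the run checks the arithmetic and not whether usage equals a transcript's fraction. The limit for 0 reads is 3 reads. With 1 group of 2 libraries, no test between groups was possible. The lowest expected count of a member was 9.07 and the median 287.8 and 473.2, with a posterior SD of 9.47% and 7.56% of the count.

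Named members are the 15 highest by TPM, the 12 with the highest share in genes of at least 5 TPM, the 4 highest of each list, the 6 with most own reads, the 4 farthest apart between libraries each way, of those reaching 5 TPM, the 3 on each side of the threshold, and those of the gene with most members. Others were named after their values were seen. The members and the 12 gene lists were chosen with earlier results of these data known. Python 3.11.15, numpy 2.4.6, pandas 2.3.3 and matplotlib 3.10.9 were used.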

Additional observations from a re-analysis of the deposited data

How the results depend on the processing

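The count of 1089 members was set by the threshold: 1976 at 0.1 TPM, 715 at 1 TPM and 186 at 5 TPM, while leaving out a library gave 1172 to 1243. The members' share of all TPM (0.6499%) was 0.915% of expected counts and 1.21% without the 4 adult globin genes, and 0.641% to 0.675% from 1 library. The median share (10.4%) was 10.3% by posterior mean TPM, 8.09% by expected counts, 17.7% as a mean, 8.91% in genes of at least 5 TPM, 13.7% at a threshold of 1 TPM and 23.4% at 5 TPM, and 9.53% to 9.93% from 1 library. Of alternatives added after the data were seen, it was 10.6% with gene sums by M21 and 10.02% in members of the annotated length. The 80 members at 50% or more of their gene became 40 in genes of at least 5 TPM and 86 to 89 from 1 library. The median distance of the stop (368 nt) was 369 nt at 0.1 TPM, 296 nt at 5 TPM and 364 nt in members of the annotated length. At 5 TPM, 67 members had own reads, 65 had intervals apart (34.9%, against 61.3% of all transcripts at that level, a comparison added after the data were seen), and 41 listed genes had a member (79 at the main threshold). Own reads of at least 10 were found in 307 members. With introns that no other M21 transcript has, an alternative added later, 433 of 586 had reads. After division by the median ratio of the libraries, 134 members (12.3%) had intervals apart, against 23.2% of all transcripts. Of 42 settings, 19 were labelled the same and 23 moved. A count was the same if it lay within 1.5-fold of the main value, so it could still change. A share was the same within the SD of the main value over the 2 libraries. The distance of the stop was the same only if equal. No paired analysis was possible because there is 1 group.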
